A study of Mus musculus with 6 samples.

Results

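A set of 38 genes was examined in mouse induced renal tubular epithelial cells (iRECs) that lacked or kept Pkd1. The genes are listed here as markers or regulators of the loop of Henle, the distal tubule and the collecting duct. They were chosen by name from the known segment biology of the kidney, with earlier results of these data known. All 38 are among the 49671 genes counted in the 6 libraries. iRECs are fibroblasts turned into kidney tubule cells by transcription factors, and these came from the strain B6.129S4-Pkd1tm2Ggg/J, in which Pkd1 can be deleted by recombination. The Cre group (n = 3) is Pkd1 knockout (Pkd1 -/-) and the Flp group (n = 3) is Pkd1 wild type (Pkd1 fl/fl). Every library came from cells grown to confluency, and each Cre line was compared with the Flp line of the same clone, number 4, 7 or 21. Each line is 1 clone grown without a kidney around it, and the labels do not say whether different clones trace to different animals. The tests below therefore capture how much the 3 pairs vary and nothing wider.

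The thick ascending limb reabsorbs salt without water through the cotransporter Slc12a1, helped by the potassium channel Kcnj1. The distal convoluted tubule reabsorbs salt through Slc12a3, which is switched on by WNK kinases acting through the kinase Stk39. In the collecting duct, principal cells take up sodium through the epithelial sodium channel (Scnn1a, Scnn1b, Scnn1g) under aldosterone and water through Aqp2 under vasopressin, while intercalated cells secrete acid or bicarbonate under the transcription factor Foxi1. The collecting duct descends from the ureteric bud, which depends on Ret and Gata3, and the other segments descend from the nephron progenitors.

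Library totals ran from 25196120 to 46918341 counts, and levels are given as CPM, the count scaled by library size, with TMM scaling to adjust for composition. Pkd1 itself was at 123 ± 20.6 CPM (SD, n = 3) in Cre and 198 ± 31.5 CPM (SD, n = 3) in Flp, and was lower in Cre in each clone (edgeR adjusted p = 0.607). Of the marker lists, 9 of 10 renal epithelial markers had a mean of 1 CPM or more, the limit used here for an expressed gene. So had 4 of 10 fibroblast markers, 3 of 5 podocyte markers, 3 of 6 urothelial markers, 1 of 5 haematopoietic markers and 0 of 5 endothelial markers. Of the fibroblast markers, Thy1 had no read and Col1a2 a mean of 0.007 CPM, while the 4 expressed ones were Fn1 (755 CPM), Vim (225 CPM), Pdgfrb (6.88 CPM) and Col1a1 (6.03 CPM, from 2.40 to 18.1 over the libraries).

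Of the 38 distal genes, 17 (44.7%) were expressed at a mean of 1 CPM or more, against 54.3% of 21734 protein-coding genes. The expressed genes were a mixed set drawn from 4 of the 5 groups of roles. They numbered 2 of 5 thick limb genes, 6 of 10 distal convoluted and connecting tubule genes, 4 of 10 principal cell genes, 5 of 8 regulators of the collecting duct and ureteric bud, and 0 of 5 intercalated cell genes. The 8 genes with no read in any library were Kcnj1, Calb1, Pvalb, Aqp2, Elf5, Atp6v0d2, Slc26a4 and Foxi1, for which 3 counts, the limit a count of 0 allows, correspond to between 0.0632 and 0.121 CPM depending on the library (counting error only). Near the limit, Gata3 lay just inside at 1.0 CPM and Hsd11b2 just outside at 0.820 CPM. The cultures are bulk samples, in which fewer cells of a type and less RNA per cell cannot be told apart.

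**Figure D1:**
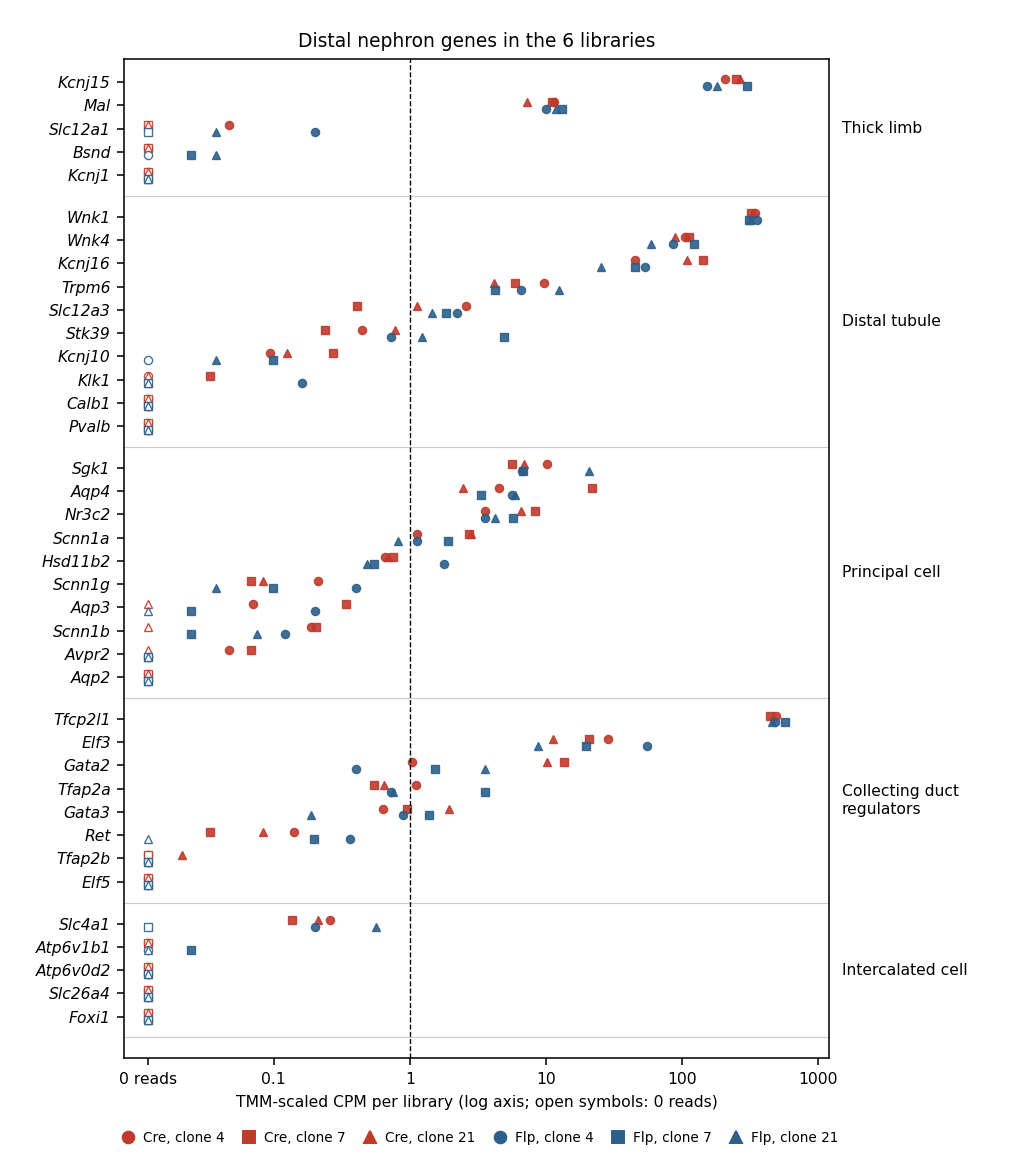
Level of each of the 38 genes in each of the 6 libraries in TMM-scaled CPM on a log axis, grouped by role, with Cre in red and Flp in blue, clone 4 as circles, clone 7 as squares and clone 21 as triangles. Open symbols mark libraries with 0 reads and the dashed line is 1 CPM. The highest levels are those of Tfcp2l1, Wnk1 and Kcnj15, and all 5 intercalated cell genes lie below the line.

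No distal gene passed the test between Cre and Flp. The test was edgeR's quasi-likelihood test with the clone as a block and Benjamini-Hochberg adjustment over 15355 genes, and it called 0 genes overall (0%) and 0 of the 18 distal genes with enough reads to be tested. The other 20 were left out for low counts. At an unadjusted p under 0.05 there were 1047 genes overall (6.82%) and 2 distal genes, Gata2 and Kcnj16, both higher in Cre, against 3.54% of all tested genes in that direction. Fitted log2 fold changes were positive for 9 distal genes and negative for 9, with a median of -0.04 against 0.00 over all genes tested. 3 genes (Gata2, Scnn1a and Nr3c2) were higher in Cre in each clone, against 14.6% of all tested genes. 1 gene (Stk39) was lower in each clone, against 13.1%, and the other 14 differed in direction between clones. Fitted changes of at least 1 in size on the log2 scale were found for 3 of the 18 (Gata2, Kcnj16 and Stk39), against 4.03% of all genes tested. In none of the 18 did the Cre and Flp groups lie fully apart, which they did for 8.14% of all tested genes.

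With DESeq2 and the same clone block, 198 of 15124 genes (1.31%) were called, among them 1 distal gene, Gata2. With edgeR and no filter on low counts, 224 of 28286 genes (0.792%) were called, among them Gata2 and Kcnj16.

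Of the 5 genes listed for the thick limb, Kcnj15 and Mal were expressed. Whether their reads stand for that segment was not tested. Kcnj15 (chr16:95257558-95300260 in GRCm38), a potassium channel subunit, was at 207, 248 and 266 CPM in Cre clones 4, 7 and 21 and at 153, 300 and 180 CPM in the matching Flp clones. The groups overlapped, with the highest and the lowest value both in Flp, and the log2 fold change was 0.24 (SE 0.18; edgeR adjusted p = 0.893). Mal (chr2:127633226-127656695), a membrane protein of apical sorting, was at 11.4, 11.1 and 7.24 CPM in Cre and 9.97, 13.2 and 12 CPM in Flp. Only the Cre line of clone 21 lay below the Flp values, at a log2 ratio of -0.72 to its Flp partner, and the fitted change was -0.26 (SE 0.24; edgeR adjusted p = 0.925). In that same pair the 79 expressed neighbours of Mal within 5 Mb had a median log2 ratio of -0.61, against -0.03 and 0.00 in clones 4 and 7; the part of this in the value of Mal was not tested.

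The remaining thick limb genes of the set were at or near 0. Slc12a1, the cotransporter itself, had between 0 and 5 reads a library, Bsnd, a chloride channel subunit, had 0 or 1 read, and Kcnj1 had none. Among 15 other thick limb genes, 7 were expressed and 8 tested, with 2 positive and 6 negative fitted changes, a median of -0.50 and 0 calls by edgeR. The highest per kilobase of exon were Fxyd2, a sodium pump subunit, at 36.1 CPM per kb, and Irx2, a transcription factor, at 4.42 CPM per kb. Cldn10, a tight junction protein, was lower in Cre in each clone, at log2 ratios of -1.51, -1.19 and -0.34, with a fitted change of -1.03 (SE 0.34; unadjusted p = 0.025; edgeR adjusted p = 0.664).

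Of the genes listed for the distal convoluted tubule, Wnk1, Wnk4, Kcnj16 and Trpm6 had a higher mean CPM than the transporter Slc12a3. Stk39 had a lower one. Whether the reads of these genes stand for that segment was not tested. Wnk1 (chr6:119923969-120038672) was at 345, 323 and 335 CPM in Cre and 356, 312 and 319 CPM in Flp, and was the steadiest of the 17 expressed genes, with a highest value 1.14 times the lowest. Its log2 fold change was 0.02 (SE 0.10; edgeR adjusted p = 0.988). Wnk4 (chr11:101260567-101277409), which in the kidney is made mainly in the distal tubule, was at 105, 112 and 88.7 CPM in Cre and 85.4, 123 and 58.8 CPM in Flp. Its values overlapped, with a log2 fold change of 0.25 (SE 0.16; edgeR adjusted p = 0.874).

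Stk39, the kinase that carries the WNK signal to the cotransporter, was low and uneven. It was at 0.449, 0.240 and 0.779 CPM in Cre and 0.726, 4.97 and 1.24 CPM in Flp, from 19, 7 and 37 reads and 18, 200 and 33 reads. The Flp line of clone 7 stood above all other libraries, and the Cre line of the same clone was the lowest. Per-clone log2 ratios were -0.63, -4.08 and -0.63, and the fitted change was -1.77 (SE 0.83; unadjusted p = 0.080; edgeR adjusted p = 0.782). Leaving out 1 clone at a time put the fitted change between -2.49 and -0.67, the smallest size being without clone 7. Oxsr1, the related kinase that can serve the same step, was at 27.7 CPM per kb against 0.283 CPM per kb for Stk39.

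Slc12a3, the thiazide-sensitive cotransporter, was at 2.60, 0.411 and 1.14 CPM in Cre and 2.22, 1.86 and 1.46 CPM in Flp. It was detected in every library, the Cre line of clone 7 being lowest, with a log2 fold change of -0.69 (SE 0.54; edgeR adjusted p = 0.901). Trpm6, a magnesium channel, was at 9.65, 5.93 and 4.15 CPM in Cre and 6.54, 4.25 and 12.4 CPM in Flp. Clone 21 ran against the other clones, at a log2 ratio of -1.57 against 0.56 and 0.48, and the fitted change was -0.16 (SE 0.49; edgeR adjusted p = 0.984).

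Kcnj16 (ENSMUSG00000051497, chr11:110968033-111027968), a potassium channel subunit of the basolateral membrane, differed by clone. It was at 45.5, 142 and 109 CPM in Cre and 53.2, 45.2 and 25.3 CPM in Flp. The Cre lines of clones 7 and 21 lay above every Flp line, whereas in clone 4 the Cre line lay slightly below its partner, at log2 ratios of 1.65, 2.10 and -0.23. The fitted log2 fold change was 1.20 (SE 0.46; unadjusted p = 0.0405; edgeR adjusted p = 0.695), and it ranged from 0.71 to 1.87 when each clone was left out. The adjusted p was 0.0261 with edgeR and no filter and 0.726 with DESeq2. The 70 expressed neighbours within 5 Mb had median log2 ratios of -0.05, 0.09 and 0.00. Kcnj10, the partner of Kcnj16 in the distal tubule, had between 0 and 8 reads a library. Kcnj15, another potassium channel subunit, was at a mean of 226 CPM. Which subunits pair in these cells was not tested.

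Of the rest of this segment, Calb1 and Pvalb had no read and Klk1, a kallikrein of the connecting tubule, had at most 4. Among 15 other genes of the distal tubule and its salt kinase pathway, 7 were expressed and 11 tested, with 5 positive and 6 negative fitted changes, a median of -0.10 and 0 calls by edgeR. Oxsr1 and Cab39, a scaffold that activates these kinases, were the highest per kilobase, at 27.7 and 26.7 CPM per kb. Wnk3 was lower in Cre in each clone, at log2 ratios of -0.23, -2.49 and -1.79, with a fitted change of -1.51 (SE 0.44; unadjusted p = 0.015; edgeR adjusted p = 0.635).

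**Figure D2:**
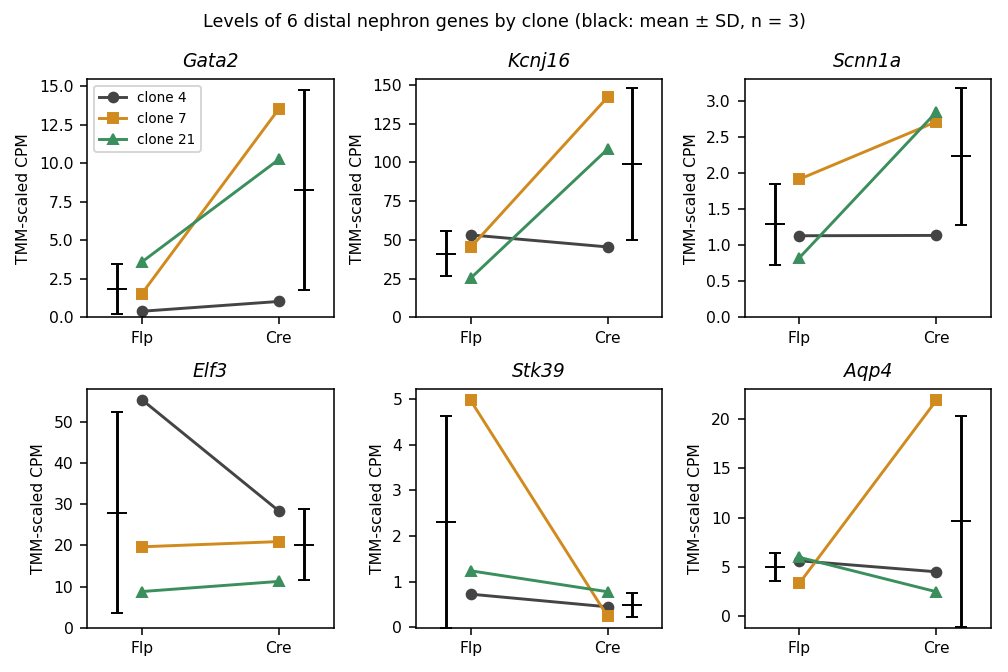
TMM-scaled CPM of Gata2, Kcnj16, Scnn1a, Elf3, Stk39 and Aqp4, with a line from the Flp to the Cre library of each clone and the mean ± SD of each group beside it (n = 3). Gata2 climbs from Flp to Cre in each clone, Stk39 descends mainly in clone 7 and Aqp4 is high only in the Cre line of clone 7.

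Principal cell genes were present at low levels, without the water channel that defines the cell. Aqp2 had no read and Avpr2, the vasopressin receptor, had 4 reads in all. As 81.3% of the exon bases of Avpr2 overlap Arhgap4 on the opposite strand and the strand setting is not given in the sources used here, those few reads cannot be assigned. No tested distal gene shared over 7.75% of its exon bases with any 1 other gene, the highest share being that of Tfap2a with Gm26688. Aqp3, the water exit channel, had 3, 10 and 0 reads in Cre and 5, 1 and 0 reads in Flp. Aqp4, another exit channel, was at 4.49, 21.9 and 2.46 CPM in Cre and 5.61, 3.33 and 5.96 CPM in Flp. Only the Cre line of clone 7 stood out, and the log2 fold change of 0.30 (SE 0.82; edgeR adjusted p = 0.984) ranged from -0.79 without clone 7 to 1.21.

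The sodium channel was unevenly represented. Scnn1a was at 1.13, 2.71 and 2.84 CPM in Cre and 1.13, 1.91 and 0.825 CPM in Flp. Cre exceeded Flp in each clone, barely so in clone 4, with log2 ratios of 0.01, 0.49 and 1.72 and a fitted change of 0.75 (SE 0.45; edgeR adjusted p = 0.852). Scnn1b had between 0 and 8 reads a library and Scnn1g between 1 and 10. Per kilobase, Scnn1a was at 0.426 CPM against 0.039 CPM for Scnn1b and 0.0505 CPM for Scnn1g.

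Of the genes tied to aldosterone, Nr3c2 and Sgk1 had means of 5.33 and 9.53 CPM. Hsd11b2, at 0.820 CPM, was under the limit of 1 CPM for an expressed gene. Nr3c2, the mineralocorticoid receptor, was at 3.57, 8.29 and 6.59 CPM in Cre and 3.55, 5.79 and 4.2 CPM in Flp. Values were level in clone 4 and higher in Cre in clones 7 and 21, with a log2 fold change of 0.40 (SE 0.26; edgeR adjusted p = 0.874). Sgk1, the kinase induced by aldosterone and by other stimuli, was at 10.3, 5.62 and 6.93 CPM in Cre and 6.74, 6.78 and 20.9 CPM in Flp. The Flp line of clone 21 was highest, and the log2 fold change was -0.42 (SE 0.44; edgeR adjusted p = 0.940). Hsd11b2, the enzyme that keeps glucocorticoids off the receptor, was at 0.662, 0.754 and 0.695 CPM in Cre and 1.78, 0.546 and 0.488 CPM in Flp, with a log2 fold change of -0.18 (SE 0.55; edgeR adjusted p = 0.984). It was even across Cre, and only the Flp line of clone 4 stood above the rest.

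Among 19 other genes of the principal cell, the corticosteroid response and sodium channel control, 14 were expressed and 16 tested. Fitted changes were positive for 12 and negative for 4, with a median of 0.17, and edgeR called none. At an unadjusted p under 0.05, 3 were higher and 0 lower, against 3.54% higher among all genes tested. The highest per kilobase were Npnt, a matrix protein of the ureteric bud, at 533 CPM per kb, and Nedd4, a ubiquitin ligase, at 159 CPM per kb. Nedd4l, the ligase that removes the sodium channel from the membrane, was higher in Cre in each clone, at log2 ratios of 0.38, 0.43 and 0.75, with a fitted change of 0.52 (SE 0.12; unadjusted p = 0.005; edgeR adjusted p = 0.607).

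Gata2 (ENSMUSG00000015053, chr6:88193891-88207032) had the widest difference between Cre and Flp among the distal genes. It encodes a zinc finger transcription factor known for its part in Aqp2 expression in the collecting duct and for blood and endothelial cells. It was at 1.04, 13.5 and 10.3 CPM in Cre and 0.404, 1.54 and 3.60 CPM in Flp, from 44, 395 and 487 reads and 10, 62 and 96 reads. Cre exceeded Flp in each clone, but the Cre value of clone 4 lay below the Flp values of clones 7 and 21. Log2 ratios were 1.25, 3.09 and 1.49, and the fitted change was 2.06 (SE 0.45; unadjusted p = 0.00402; edgeR adjusted p = 0.607). It ranged from 1.45 to 2.38 when each clone was left out. The adjusted p was 0.000996 with DESeq2 and 0.0064 with edgeR and no filter.

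Gata2 is also a gene of other cell types, whose markers were therefore read in the same libraries. The 5 endothelial markers summed to between 0.240 and 0.875 CPM in Cre and between 0.242 and 1.80 CPM in Flp, with Cdh5, Kdr and Emcn at 0. The 5 haematopoietic markers summed to between 4.42 and 6.64 CPM in Cre and between 6.23 and 6.66 CPM in Flp, nearly all of it Cd68. The 79 expressed neighbours of Gata2 within 5 Mb had median log2 ratios of -0.05, 0.01 and -0.02.

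The bases before the start sites of Gata2, Kcnj16 and Aqp2 are shown because the first pair had the smallest unadjusted p of the distal genes and Aqp2 is the silent gene that is classically tied to Gata2. The sequences are from RefSeq on GRCm38.p6, each the 250 bases upstream of an annotated start, 5′ to 3′ on the strand of the gene, here the plus strand. Capitals mark the letters GATAA, or TTATC where they lie on the other strand.
Gata2, first start, chr6:88193641-88193890: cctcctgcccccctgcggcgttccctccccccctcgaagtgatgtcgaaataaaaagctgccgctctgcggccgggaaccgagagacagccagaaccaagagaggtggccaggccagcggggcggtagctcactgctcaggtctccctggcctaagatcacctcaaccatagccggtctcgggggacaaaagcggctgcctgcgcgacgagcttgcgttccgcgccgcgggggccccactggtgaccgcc
Gata2, second start, chr6:88198414-88198663: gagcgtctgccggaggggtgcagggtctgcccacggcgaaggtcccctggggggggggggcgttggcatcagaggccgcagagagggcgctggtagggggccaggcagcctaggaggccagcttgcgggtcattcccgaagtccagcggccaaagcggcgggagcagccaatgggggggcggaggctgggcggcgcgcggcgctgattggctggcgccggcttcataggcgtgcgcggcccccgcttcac
Kcnj16, first start, chr11:110967783-110968032: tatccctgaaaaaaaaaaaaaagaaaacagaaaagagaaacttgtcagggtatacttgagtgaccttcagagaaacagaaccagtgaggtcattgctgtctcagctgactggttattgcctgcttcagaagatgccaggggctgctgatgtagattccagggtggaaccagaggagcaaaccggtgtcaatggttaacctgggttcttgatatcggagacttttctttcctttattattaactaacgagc
Kcnj16, the third start, chr11:111019335-111019584: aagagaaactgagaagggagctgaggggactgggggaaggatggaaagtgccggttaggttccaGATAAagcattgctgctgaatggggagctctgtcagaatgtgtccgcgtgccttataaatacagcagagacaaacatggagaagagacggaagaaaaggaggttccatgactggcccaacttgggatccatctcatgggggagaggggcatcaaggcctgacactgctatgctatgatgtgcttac
Aqp2, chr15:99578806-99579055: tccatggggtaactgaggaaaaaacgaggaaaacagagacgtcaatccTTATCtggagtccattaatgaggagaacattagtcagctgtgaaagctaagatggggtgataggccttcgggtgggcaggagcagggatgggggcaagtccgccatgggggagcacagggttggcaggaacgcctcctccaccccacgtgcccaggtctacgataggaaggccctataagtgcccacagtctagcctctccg

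The Gata2 windows hold none of these letters. Of 4 Kcnj16 windows, 1 has a match, GATAA from base -186 at the third start, and the other windows of this gene, not all shown, have none. The Aqp2 window has TTATC from base -202. The counts are per gene and do not tell the start sites apart. Of the 38 genes, 30 had an entry, with 42 windows in all. GATAA or TTATC occurred in 9 of them (21.4%), against 7418 of 32851 windows of the same length over the genome (22.6%). A match is a run of letters and not a bound site.

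The other regulators ranged widely in level. Tfcp2l1 (chr1:118627945-118685168), a transcription factor of the collecting duct and distal tubule, was at 493, 443 and 464 CPM in Cre and 480, 571 and 457 CPM in Flp. It was the highest of the 38 genes per kilobase, at 51.4 CPM per kb, with a log2 fold change of -0.10 (SE 0.13; edgeR adjusted p = 0.948). Elf3 (chr1:135253575-135258568), an epithelial ETS factor, was at 28.4, 20.9 and 11.2 CPM in Cre and 55.5, 19.7 and 8.78 CPM in Flp. Clone 4 was highest and clone 21 lowest in both groups, and the log2 fold change was -0.18 (SE 0.28; edgeR adjusted p = 0.959).

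Tfap2a, a regulator of epithelial development, was at 1.11, 0.548 and 0.653 CPM in Cre and 0.726, 3.55 and 0.75 CPM in Flp. As with Stk39, the Flp line of clone 7 stood above the rest, and the log2 fold change was -0.74 (SE 0.72; edgeR adjusted p = 0.928). Gata3, which the ureteric bud needs, was at 0.638, 0.959 and 1.94 CPM in Cre and 0.888, 1.39 and 0.188 CPM in Flp, the last from 5 reads. Clone 21 alone was higher in Cre, and the log2 fold change was 0.55 (SE 0.85; edgeR adjusted p = 0.959). Ret, the receptor of the ureteric bud tip, had between 0 and 9 reads a library, Tfap2b had 1 read in all and Elf5 had none.

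Among 15 other genes of collecting duct and ureteric bud development, 11 were expressed and 12 tested, with 6 positive and 6 negative fitted changes, a median of 0.08 and 0 calls by edgeR. Emx2, a transcription factor of the ureteric bud, was the highest per kilobase. Sox9, a progenitor and tip cell factor, was lower in Cre in each clone, at log2 ratios of -0.74, -0.76 and -0.40, with a fitted change of -0.63 (SE 0.15; unadjusted p = 0.006; edgeR adjusted p = 0.607).

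The 5 intercalated cell genes of the set were at or near 0. Foxi1, the factor that specifies the cell, and Slc26a4, the bicarbonate secreting exchanger pendrin, had no read in any library. Atp6v1b1, a proton pump subunit typical of the cell, had 1 read over all 6 libraries, and Atp6v0d2 had none. Slc4a1, the chloride and bicarbonate exchanger of acid secreting cells, had 11, 4 and 10 reads in Cre and 5, 0 and 15 reads in Flp, a mean of 0.229 CPM.

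The other genes listed for the intercalated cell and the proton pump were in part expressed and in part silent. Among 21 other genes of the intercalated cell and the proton pump, 10 were expressed and 11 tested, with 7 positive and 4 negative fitted changes, a median of 0.08 and 0 calls by edgeR. Atp6v0d1 and Atp6v1b2, the widespread counterparts of Atp6v0d2 and Atp6v1b1, were the highest per kilobase, at 105 and 75.1 CPM per kb. Genes better known from intercalated cells were also detected in every library, named here after their values were seen. Atp6v0a4, a pump subunit of these cells, was at a mean of 5.92 CPM, and the carbonic anhydrases Car2 and Car12, which other epithelia also make, were at 13.1 and 8.06 CPM. Others of the same list were silent or nearly so, again named after their values were seen. Slc26a7, Hmx2, Kit, Insrr and Atp6v1g3 had no read. Aqp6 and Dmrt2 had 1 read each over all 6 libraries, and Oxgr1 had 4. Atp6v1c1, another widespread subunit, was higher in Cre in each clone, at log2 ratios of 0.34, 0.34 and 0.17, with a fitted change of 0.28 (SE 0.10; unadjusted p = 0.032; edgeR adjusted p = 0.686).

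Over the 85 other genes of these lists, 58 were tested, and at an unadjusted p under 0.05 there were 6 higher and 3 lower in Cre, against 6.82% of all tested genes in either direction. By list, the numbers higher and lower were 0 and 1 for the thick limb, 1 and 1 for the distal tubule and its kinases, and 3 and 0 for the principal cell. They were 0 and 1 for collecting duct development and 2 and 0 for the intercalated cell and proton pump.

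**Figure D3:**
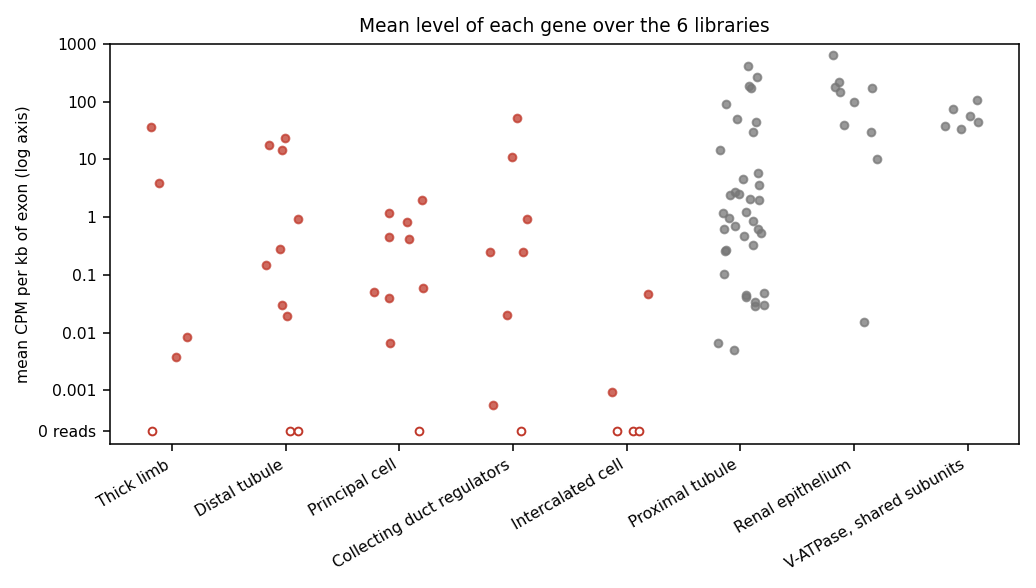
Mean TMM-scaled CPM per kilobase of exon over the 6 libraries on a log axis, 1 point a gene, for the 5 groups of distal genes (red) and 3 sets for comparison (grey). The proton pump set holds 6 widespread subunits picked after their values were seen, all of which lie above all 5 intercalated cell genes.

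The distal genes varied widely between libraries. The 17 expressed distal genes had a median ratio of highest to lowest library of 3.71, against 1.5 over all genes at 1 CPM or more and 1.83 over the 49 expressed genes of the other distal lists. For the 28 expressed genes of a proximal tubule list it was higher, at 4.73, so a wide range was not particular to the distal genes. A range of at least 3-fold was found for 10 of the 17 and for 12 of those 49. Wide ranges were commoner at low levels throughout. Among genes between 1 and 10 CPM, 8 of 10 distal genes and 30.4% of all genes had a range of at least 3-fold, and at 10 CPM or more the figures were 2 of 7 and 4.37%. The summed level of the 38 genes ran from 1272 to 1362 CPM in Cre and from 1114 to 1421 CPM in Flp, so the groups overlapped.

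edgeR's test across the 3 clones, with Cre or Flp as a further term, called 1 of 15355 genes (0.00651%) and no distal gene. Gata2 and Elf3 had the lowest edgeR adjusted p of the distal genes, 0.342 and 0.352. Clone means of Elf3 were 41.9, 20.3 and 10.0 CPM in clones 4, 7 and 21, whereas Gata2 was low in clone 4, at 0.722 CPM against 7.54 and 6.93 CPM. DESeq2's likelihood ratio test called 437 of 16221 genes (2.69%), among them Elf3 (adjusted p = 2.08e-05) and Gata2 (adjusted p = 1.42e-05). The unfiltered edgeR fit called 519 (1.83%), among them the same genes, Elf3 (adjusted p = 0.000361) and Gata2 (adjusted p = 0.000496). Leaving out a clone put the edgeR adjusted p between 0.188 and 0.573 for Elf3 and between 0.101 and 0.858 for Gata2, the highest for Gata2 being without clone 4.

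**Figure D4:**
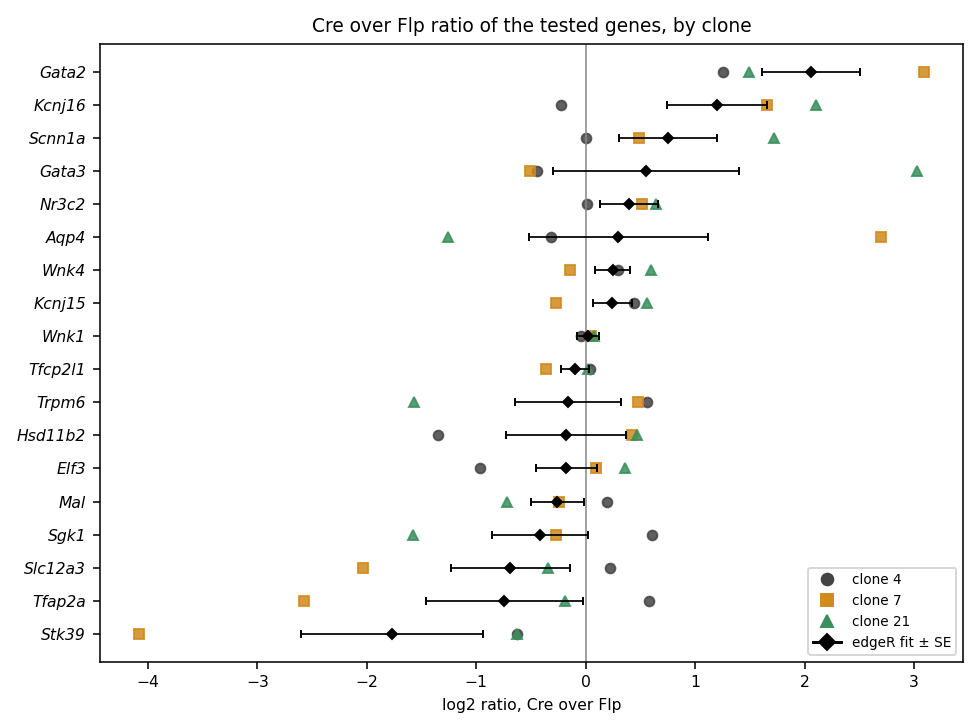
Log2 ratio of Cre over Flp in each clone (symbols as in the plot of levels) and the edgeR fitted log2 fold change ± SE for the 18 tested distal genes. Gata2, Scnn1a and Nr3c2 lie above 0 in each clone, and Stk39 lies below 0 in each.

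As a comparison within the same cells, 28 of 38 proximal tubule genes (73.7%) were expressed at 1 CPM or more, against 17 of 38 distal genes. Among the 85 other distal genes 49 (57.6%) were expressed. By list, that share ran from 46.7% for the thick limb to 73.7% for the principal cell, so it depends on the genes listed. Of the proximal genes 30 were tested, with a median log2 fold change of -0.02 and 0 calls by edgeR, and 17 of the 28 expressed had a range of at least 3-fold over the libraries.

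The authors' deposited table of Cre against Flp lists all 38 genes and gives 18 of them an adjusted p, with 178 of 12973 genes (1.37%) under 0.05 overall. In the authors' deposited table, Gata2 was the 1 distal gene under that level, with 0.92 on the log2 scale (SE 0.21; adjusted p = 0.0027). For Kcnj16 the authors' deposited table gives 0.36 (adjusted p = 0.643) and for Stk39 -0.39 (adjusted p = 0.366). Its signs were the same as those fitted here for all 18 genes tested. Its log2 values for Gata2, Kcnj16 and Stk39 were smaller in size than the changes fitted here. Its means for Kcnj16 and Stk39 were nonetheless close to those from the deposited counts. How the table's log2 values were computed was not tested, so only their signs are compared. The table's mean for Slc12a3 is 0.578 times, and that for Nr3c2 0.774 times, the mean from the deposited counts. Avpr2, with 4 reads in those counts, has a mean of 0 in the authors' deposited table. Whether that table rests on the same counts and annotation was not tested.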

How the data were processed

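The submitters' processing notes name STAR 2.5.2b-2, Trim Galore 0.4.3.0, featureCounts 1.6.0.3, FastQC 0.67 and DESeq2 2.11.40.1, with builds mm10 and GRCm38. No source used here gives the strand setting, the read layout or the annotation release. The authors deposited raw counts per gene for each of the 6 libraries, which are the values tested here. The authors' deposited table of Cre against Flp holds a mean signal of normalized counts, the p-value, raw and adjusted, a Wald score, and the log2 fold change with its error.

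The members and lists were chosen with earlier results of these data known. Of 49671 gene IDs, 49326 matched a symbol. Genes passing edgeR's own filter (15355) were fitted with edgeR 4.0.16 in R 4.3.3, TMM scaling and the clone as a block, leaving 2 residual degrees of freedom. The block follows the series' design, which pairs Cre and Flp by clone: deviations correlated within clones 4, 7 and 21 (0.20, 0.11 and 0.30) and between clones from -0.27 to 0.02. A call needs an adjusted p under 0.05. Per-clone log2 ratios used a prior count of 2, and neighbours, added after the data were seen, are genes of at least 5 CPM within 5 Mb. Coordinates and exon lengths are from GENCODE M21. Every expressed member is named. Of the untested members, those with 10 or more reads in a library are named by rule, and the rest were named after their values were seen. Of each other list, the 2 genes of highest CPM per kb and the gene of smallest p with 1 direction in all 3 clones are named, except 1 gene that is not reported here. Alternatives were DESeq2 1.42.0, its scaling (RLE), no filter, no block, other limits for an expressed gene and leaving out each clone. The fits were tested on simulated data, with no differences between libraries beyond depth, random spread and the changed genes. The Cre against Flp fit called 12.5% of genes changed 1.5-fold, 44% at 2-fold and 91.5% at 4-fold. The fit between clones called 2.08%, 24% and 66%. Many changes of 2-fold or less would thus be missed. The simulated shares need not hold in the real libraries, for larger changes either. There, none of the 619 genes with a fitted log2 change of at least 1 in size was called. Gata2, with a fitted change of 4.16-fold, was among those not called. The limits given for a count of 0 cover counting error only, and not PCR duplication or variation between cultures.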

Additional observations from a re-analysis of the deposited data

How the results depend on the processing

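No gene was called between Cre and Flp with RLE scaling, with edgeR and no replicate block (0 genes) or without any 1 clone (0 to 0), whereas no filter gave 224 genes (2 distal) and DESeq2 with the block 198 (1 distal). Between clones, where 1 gene was called, no filter gave 519 (2 distal), DESeq2's likelihood ratio test 437 (2 distal), the fit without the group term 2 and leaving out a clone 0 to 4. The number of expressed distal genes was 17, and ranged from 12 at a limit of 2 CPM to 18 at 0.5 CPM and from 14 to 17 with a clone left out. Of 126 alternative values for single genes between Cre and Flp, 114 kept their direction and their side of the threshold, 3 passed it (Gata2 under both, Kcnj16 with no filter) and 9 changed sign, all with a clone left out. Those ranges of log2 fold change were -0.79 to 1.21 for Aqp4, -0.45 to 0.22 for Elf3, -0.51 to 1.26 for Gata3, -0.51 to 0.48 for Hsd11b2, -0.94 to 0.17 for Sgk1, -1.47 to 0.21 for Tfap2a, -0.17 to 0.033 for Tfcp2l1, -0.56 to 0.52 for Trpm6 and -0.0034 to 0.059 for Wnk1. The causes were not tested. Genes under about 0.1 CPM cannot be compared at this depth.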
